A study of Arabidopsis thaliana with 42 samples.

Results

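The root transcriptome of Col-0, the laboratory accession of Arabidopsis thaliana, was set against the root transcriptomes of 6 other natural accessions, Kas-2, NFA-8, Sq-8, Tamm-27, Ts-5 and Var2-1 (written Col0, Kas2, NFA8, SQ8, TAMM27, Ts5 and Var2-1 in the labels). The 6 Col-0 arrays, of 42 in all, formed one side of the comparison and the 36 arrays of the other accessions the other side, as the labels assign them. Each accession had 3 arrays of roots treated with KCl and 3 of roots treated with KNO3, labelled as biological replicates. Seedlings grew for 12 days in hydroponic medium whose only nitrogen was 0.5 mM ammonium succinate, with 3 mM sucrose, and whole roots were taken 2 h after the addition of either salt to 5 mM. The labels name no transgene or mutation, whole roots mix all root cell types, and in such samples fewer cells of a type and less RNA per cell cannot be told apart. Each accession was a single line, so whatever is common to the 6 Col-0 arrays, in genotype, seed stock or handling, cannot be told apart here.

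An accession is an inbred line descended from a plant collected at one place in the wild, and accessions differ in sequence, in gene content and in the level of many transcripts. The ATH1 array reads each transcript with short probes designed on the Col-0 genome. A base that differs in another accession weakens binding to a probe there, so a mismatch works against a lower signal in Col-0 and towards a higher one. Genes lower in Col-0 are therefore given first. Nitrate taken up by root transporters is reduced by nitrate reductase and nitrite reductase and assimilated through glutamine synthetase, and nitrate itself induces many of these genes.

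The deposited MAS5 signals, linear probe set intensities, had array medians of 97.8 to 158 and array means of 307 to 355, and 49.5% to 62.5% of the probe sets on an array reached a signal of 100. The study took a signal of 100 as its cutoff for detection. No arrays held identical values. Gene names follow the probe set names of the deposited matrix, which a table of the study pairs with other signals. Under these names different probe sets of the same gene did not rise and fall together (median correlation -0.02 across the arrays over 28 genes), so every gene name below rests on a pairing that was not settled. The Col-0 arrays were alike, with a median correlation to their own group of 0.873 to 0.903, against 0.540 to 0.875 in the other accessions. The log2 ratio of 3' over 5' signal of the actin, GAPDH and ubiquitin control probe sets, which rises as labelled RNA gets shorter, was 0.738 to 1.28 on the Col-0 arrays and 0.0532 to 4.57 on the others, so this measure moved with accession. The 6 arrays with a median correlation to all other arrays under 0.65 were all of other accessions. Few root marker genes had a named probe set, so the tissue could be checked mainly against shoot markers. The 4 tested photosynthesis genes summed to signals of 517 to 2566 on Col-0 arrays, within a range of 204 to 40092 on the others, where the highest was Var2-1 KNO3 replicate 1.

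Nitrate-induced genes in Col-0 went with the treatment and also with the replicate number. NRT2.1, a high-affinity nitrate transporter, had signals of 217, 6932 and 367 in KCl replicates 1, 2 and 3 and of 436, 10752 and 4406 in KNO3 replicates 1, 2 and 3. NIR1, which encodes nitrite reductase, had 1398, 9603 and 2391 in KCl and 2659, 14363 and 8813 in KNO3. Within each number both genes were higher in KNO3 than in KCl, number 2 was the highest and number 1 the lowest in either salt, and the arrays of the 2 salts overlapped. Over all tested probe sets, the Col-0 KCl and KNO3 arrays of the same number deviated together from their group means, with correlations of 0.19, 0.20 and 0.22 against -0.20 to 0.03 for different numbers. The labels do not say whether a number marks a shared culture. If it does, the 6 Col-0 arrays are 3 independent sets, so counts and calls without both arrays of a number, chosen after seeing the data, are given beside the results they change.

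Of 6590 probe sets tested, 872 (13.2%) were lower and 847 (12.9%) higher in Col-0 than in the mean of the other 6 accessions at a false discovery rate of 0.1 (limma, Benjamini-Hochberg adjustment), 1719 or 26.1% together. At an unadjusted p under 0.05 there were 1061 and 1064 (16.1% each). The remaining 4871 did not pass. The median log2 difference was -0.77 among those lower and 0.88 among those higher, against 0.01 over all tested, and 248 of those lower and 345 of those higher differed at least 2-fold. This test reads the spread between arrays, and it does not ask whether Col-0 lies outside the spread among accessions. When the 7 accession means were the units, no probe set passed (263 lower and 259 higher at an unadjusted p under 0.05, 3.99% and 3.93% of those tested), so each call below says that the Col-0 arrays differed from the other arrays and not that Col-0 was unusual for an accession. Without both Col-0 arrays of number 1, 2 or 3, 587, 442 and 405 were lower and 520, 410 and 367 higher. With the arrays of the same accession and number as a random block, 707 were lower and 698 higher. When that 3' to 5' measure was added to the model, 609 were lower and 613 higher.

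For 64 probe sets (0.971%) Col-0 was lower than each of the other accessions, and for 10 (0.152%) all 6 Col-0 arrays lay below all 36 others. The most depleted of these was AT5G48430, for which the sources used here give no function. Its signal was 85.5, 61.9 and 71.7 in the Col-0 KCl arrays and 106, 95.6 and 61.3 in the KNO3 arrays, and the other arrays ran from 137 in Tamm-27 KCl through a median of 558 to 3122 in Ts-5 KCl. The groups did not overlap, and the log2 difference was -3.05 ± 0.38 (SE; adjusted p = 7.4e-07, limma), an 8.29-fold higher signal in the others. The means of the other accessions spread from 255 in Tamm-27 to 1441 in Ts-5, so that Col-0 lay below a wide range.

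AT4G01870 had the next lowest difference at a higher level. Its Col-0 signals were 685, 389 and 516 in KCl and 547, 281 and 502 in KNO3, while the others ran from 905 through a median of 2444 to 9264. It was 5.49-fold higher in the others, with a log2 difference of -2.46 ± 0.21 (SE; adjusted p = 7e-10, limma). AT2G07180 was at 135, 38.6 and 121 in the Col-0 KCl arrays and at 116, 111 and 94.9 in the KNO3 arrays, and the others were at 165 to 763 with a median of 357. The low Col-0 value was KCl replicate 2, and without it the gene still passed. AT2G20920 was at 120 to 186 in Col-0 and 243 to 2110 elsewhere (-1.81), AT4G24160 at 326 to 575 and 633 to 3354 (-1.37), and AT3G26000 at 157 to 266 and 335 to 924 (-1.26, each a log2 difference). These 6 genes kept their calls when any single array or other accession was left out.

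ALDH10A9, an aldehyde dehydrogenase of the family that oxidises betaine aldehyde and other aminoaldehydes, was at 614, 606 and 474 in Col-0 KCl and at 662, 612 and 487 in Col-0 KNO3. The other arrays ran from 709 through 1305 to 2578, and the log2 difference was -1.21 ± 0.17 (SE; adjusted p = 9.5e-06, limma). AT3G51450, AT4G33940 and AT1G19010 completed the set of 10, with log2 differences of -0.998, -0.92 and -0.90. Their Col-0 ranges ended at 245, 294 and 91.6, just under the lowest other array at 248, 297 and 92.0, so the separation of these 3 was narrow.

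**Figure D1:**
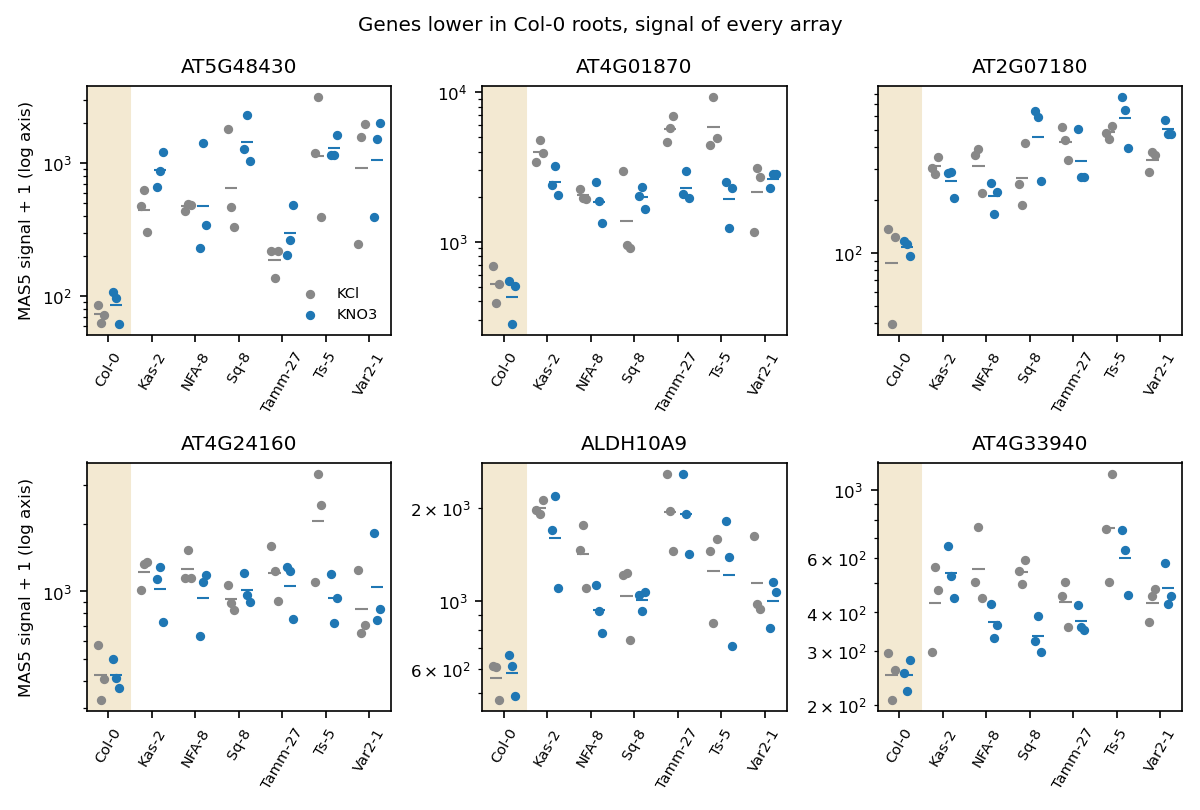
MAS5 signal plus 1 on a log axis for 6 genes lower in Col-0 (shaded), 1 point per array, grey for KCl and blue for KNO3, with lines at the mean log2 value of each group of 3. In AT5G48430 the Col-0 points sit at 61.3 to 106, below all 36 other points, and in AT4G33940 the groups nearly touch.

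Other genes with a name in the reference were lower in Col-0 than in each of the 6, but with overlap between single arrays; they were picked out after their values were seen. YLS5, named for its expression in yellowing leaves, had a log2 difference of -1.58 ± 0.27 (SE), with Col-0 arrays at 687 to 1107 and others at 995 to 6705. Its immediate neighbour on the chromosome, AT2G38870, was also lower, with a difference of -3.29 (adjusted p = 0.0017). The cytochrome P450 genes CYP71B6 and CYP71B29 were lower by differences of -1.07 and -1.03. VHA-A1, a subunit of the vacuolar-type proton pump of the trans-Golgi network, had -1.02, and RTE1, which acts on the ethylene receptor ETR1, had -1.06. ATCOAE, a kinase of coenzyme A synthesis, had -0.78, and AT1G49670 had -1.10. The adjusted p of the genes other than AT2G38870 ran from 7.4e-05 for YLS5 to 0.0060 for CYP71B29 (limma).

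Among genes higher in Col-0, 52 (0.789%) exceeded each of the 6 accessions, and for 23 (0.349%) all 6 Col-0 arrays lay above all 36 others. The first count fell to 34, 27 and 28 without Col-0 KCl replicate 2, KCl replicate 3 and KNO3 replicate 3, to 39, 25 and 18 without both arrays of number 1, 2 and 3, and to 34 with the random block. The Col-0 signal of AT2G19970, for which no function is given here, was 2693, 2686 and 2329 in KCl and 2756, 1561 and 2880.3 in KNO3, while the other arrays ran from 2.0 through a median of 56.0 to 577. On 22 of those 36 the signal was under 100. The difference was 5.60 ± 0.91 (SE; adjusted p = 5.0e-05, limma; 4.16 to 5.89 over the alternatives), and on average 5.00 of the 11 elements of this probe set had been discarded in the other accessions. PR-1-LIKE, which lies 1 gene away and is named for its likeness to the pathogenesis-related protein PR-1, was at 998, 1422 and 1636 in Col-0 KCl and 1043, 835 and 1374 in Col-0 KNO3. The others were at 2.3 to 824 with a median of 50.6, 25 of them under 100, and the difference was 4.59 ± 0.81 (SE; adjusted p = 0.00014, limma). These genes share a direction and a place, and nothing here separates a lower transcript level in the other accessions from a sequence that the probes do not bind.

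AT5G14650 was at 450, 409 and 898 in Col-0 KCl and 415, 286 and 719 in Col-0 KNO3, with the others at 3.7 to 163. Its log2 difference was 4.22 ± 0.54 (SE; adjusted p = 1.5e-06, limma), and 34 of the 36 other arrays lay below a signal of 100. The mean of the others was 35.5, so this probe set reached the mean of 100 needed for testing only through Col-0. AT4G15390, annotated as an HXXXD-type acyl-transferase, was strongly expressed in Col-0, from 6271 to 8266, and ran from 148 to 5351 elsewhere with a difference of 2.65. AT1G67750, annotated as a pectate lyase, which cuts the pectin of cell walls, had 912 to 1363 and 3.8 to 793, with a difference of 2.45. AT3G46270, AT2G30660, AT4G10550, AT5G43910 and AT5G45480 had differences of 2.76, 2.74, 2.71, 2.58 and 2.403. For AT4G10550 and AT5G43910, 24 and 28 of the 36 other arrays were under 100. The means of the others were 77.8 and 80.1, so these genes too were tested only through Col-0. AT2G30660 again had a neighbour, AT2G30670, that was higher in Col-0 (1.54). For AT5G45480, 5.17 elements had been discarded on average.

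The named genes that exceeded each of the 6, picked out after their values were seen, included several with known roles in hormone and secondary metabolism. GH3.17, an enzyme that conjugates auxin to amino acids, was at 1150.2 to 1689 in Col-0 and at 190.0 to 937 elsewhere, with no overlap and a log2 difference of 1.54 ± 0.20 (SE; adjusted p = 1.3e-06, limma). BAT1, an acyltransferase linked to brassinosteroids, had 1.89. GTR2, a glucosinolate transporter, had 1.57 with Col-0 arrays at 991 to 1786 and others at 101 to 932, and 4.08 elements discarded on average. ECS1 had the largest difference of these, 4.81 ± 0.58 (SE), yet its Col-0 arrays ranged from 131 in KNO3 replicate 2 to 4052 in KNO3 replicate 3 and overlapped the others at 4.1 to 518.

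Cell wall and housekeeping genes were also among them. EXPB2, a beta-expansin that loosens cell walls, had a difference of 2.61, and CSLA03, a cellulose synthase-like enzyme, 1.14. PRXR1, a peroxidase, was at 13522 to 20728 in Col-0 and 3679 to 11345 elsewhere (1.17 ± 0.16, SE). GAPC2, the cytosolic glyceraldehyde-3-phosphate dehydrogenase, was at 13846 to 21690 and 4318 to 15976 (1.09 ± 0.15, SE), although 3.83 of its elements had been discarded on average. Over the alternatives the difference ran from 0.58 to 1.26 for PRXR1 and from 0.43 to 1.24 for GAPC2. PRN, a pirin protein, had 2.04, MOB1-like 1.39, ATB2 1.25, bHLH115, a transcription factor of the iron response, 1.15, IQD31, a calmodulin-binding protein, 1.04, and GAMMA-VPE, a vacuolar protease, 0.95. These 14 genes passed the limma test with adjusted p up to 0.00066.

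**Figure D2:**
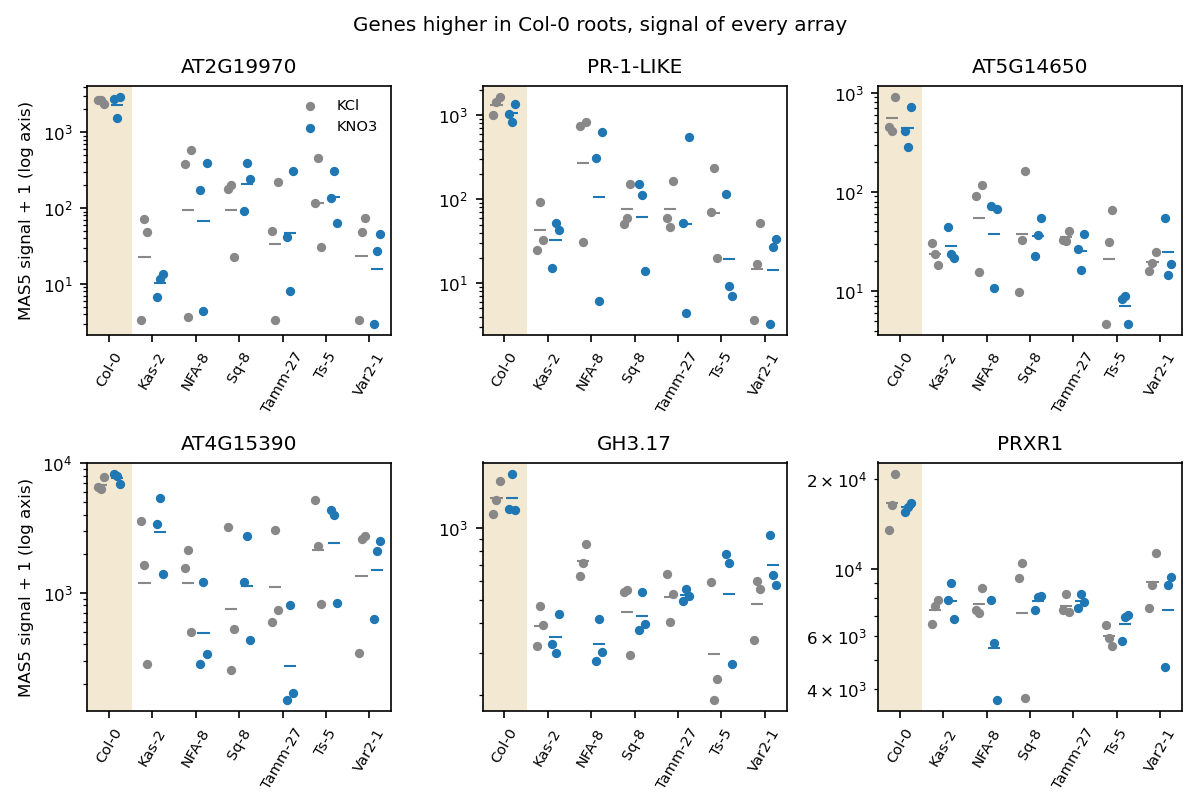
MAS5 signal plus 1 on a log axis for 6 genes higher in Col-0 (shaded), drawn as for the lower genes with KCl in grey and KNO3 in blue. Every Col-0 point lies above all 36 other points in each panel, from 286 against at most 163 in AT5G14650 to 13522 against at most 11345 in PRXR1.

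The number of elements that the authors had discarded from a probe set, because their rank within it departed from that in Col-0, moved with the calls in one direction. Among probe sets with a mean of up to 1 discarded element, 14.5% were lower and 6.63% higher in Col-0. In those with over 1 to 2 the shares were 13.2% and 12.1%, and with over 2 to 3 they were 12.4% and 17.8%. With more than 3, 10.7% of 234 were lower and 35% higher. The share of higher calls was larger in each bin with more discarded elements, and the share of lower calls was smaller in each. In the 995 probe sets that had lost at most 2 elements in every accession and treatment, 148 (14.9%) were lower and 63 (6.33%) higher. Whether the higher calls come from mismatches or from transcript levels was not tested.

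**Figure D3:**
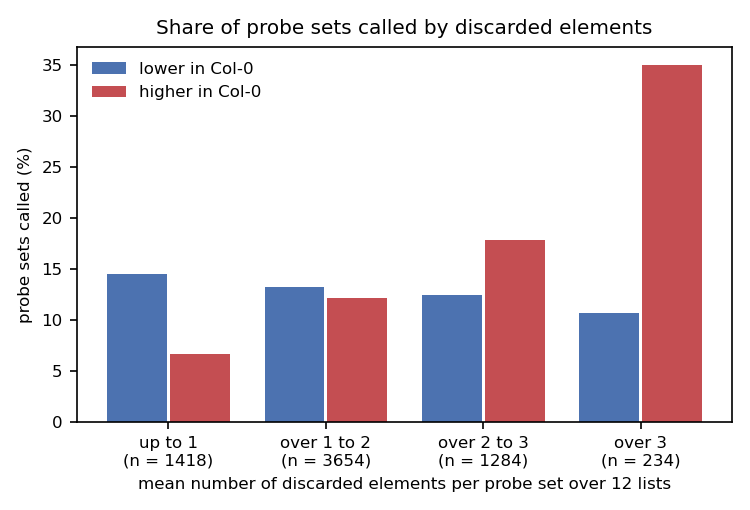
Percentage of tested probe sets called lower (blue) or higher (red) in Col-0, by the mean number of discarded elements over the 12 lists (6 accessions and 2 treatments), with the number of probe sets under each pair of bars. The red bars go from 6.63% to 35% and the blue bars from 14.5% to 10.7%.

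Set against each accession separately, Col-0 differed most often from Kas-2, with 1148 lower and 981 higher (32.3% of those tested), then from Tamm-27 with 1093 and 979 (31.4%) and from Ts-5 with 771 and 1015 (27.1%). Fewer passed against Var2-1, with 472 and 528 (15.2%), Sq-8, with 332 and 433 (11.6%), and NFA-8, with 366 and 283 (9.85%). All 6 comparisons share the Col-0 arrays. The mean log2 3' to 5' ratio was 0.922 in Col-0 and 3.43 in Kas-2. It was 2.27 in Tamm-27, 2.38 in Ts-5 and Var2-1, 1.34 in NFA-8 and 1.23 in Sq-8. The ratio was thus nearest to that of Col-0 in Sq-8 and NFA-8, which had the fewest calls. What this measure adds to the counts, and differences between the counts, were not tested. The same comparison was made for every accession against its own other 6. Col-0 had 847 higher and 872 lower, Kas-2 773 and 597, Tamm-27 746 and 686, Sq-8 464 and 715, Ts-5 422 and 693, Var2-1 285 and 416 and NFA-8 200 and 153. All 6 arrays of Col-0 lay beyond the 36 others in 10 probe sets below and 23 above, against 2 to 6 below and 0 to 4 above in the other accessions. Such separation also depends on how alike the 6 arrays are. The correlation to the own group averaged 0.893 in Col-0 and 0.680 to 0.836 in the other accessions. Probes designed on Col-0 also favour a higher signal there, and what either adds to these counts was not tested. Col-0 had the lowest accession mean at 21.6% of the tested probe sets and the highest at 15.4%. Each of the other accessions had the lowest mean less often, at 8.27% to 15.1%. Kas-2 and Tamm-27 had the highest mean more often than Col-0, with Tamm-27 at 17.8%. NFA-8, Sq-8, Ts-5 and Var2-1 had it less often.

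Pathway lists could be read only in part, since the platform annotation named a probe set for 72 of 524 list genes and 46 were tested. Over all tested probe sets the shares were 13.2% lower and 12.9% higher, and the counts here are too small to be read against them. No flowering time, glucosinolate synthesis, myrosinase, iron, phosphate and sulfate or flavonoid and lignin gene passed, out of 2, 2, 4, 2, 2 and 3 tested, and neither did any of 4 photosynthesis genes. Further members of these lists could be named only through the study's own gene lists and did in part pass. There the flowering regulators MAF1 (log2 difference 1.02, adjusted p = 0.097), FCA (0.70, 0.090) and VRN2 (0.62, 0.032) were higher in Col-0, 3 of 4. Over all 22746 probe sets that are not controls 8.44% were higher, and 4 genes are too few to be read against that. Of the 4, 2 came from genes that the study had called on these arrays. The glucosinolate synthesis gene SUR1 (0.48), the metal transporter NRAMP1 (0.70) and the phenylpropanoid genes CCR1 (0.54) and OMT1 (0.54) were higher as well. Each of these 7 genes lost the call without at least 1 single Col-0 array. MAF1 lost it when any 1 of the 6 Col-0 arrays was left out and under quantile normalization. Its mean signal was 111 in Col-0 and 109 in Sq-8, and 30 of the 36 other arrays were under 100. The myrosinase PYK10, a beta-glucosidase of root endoplasmic reticulum bodies, was at 3727 to 7896 in Col-0 and 2058 to 15016 elsewhere (-0.29, adjusted p = 0.42, limma). In the defence list 1 of 5 was lower, WRKY53, a transcription factor of senescence and defence, at 47.2 to 93.7 against 19.1 to 338 (-0.83, adjusted p = 0.060). The single tested immune receptor, CSA1, was higher by a log2 difference of 1.04 between mean log2 values. Its mean signal was 246 in Col-0, 672 in NFA-8, 474 in Sq-8, 354 in Tamm-27, 92.9 in Kas-2, 35.8 in Ts-5 and 23.8 in Var2-1, so Col-0 lay in the middle, and without Ts-5 or Var2-1 the difference was 0.57 or 0.58 and did not pass (adjusted p = 0.24 and 0.27). Of 2 lateral root genes PUCHI, a transcription factor of lateral root initiation, was lower (-0.77). The root hair expansin EXPA18, 1 of 3 in its list, was higher (1.45), and so was the co-chaperone HOP3, 1 of 2 (1.47). The mean signal of HOP3 was 484 in Col-0 and 487 in NFA-8, and Col-0 passed against 3 of the 6 accessions. HOP3 kept its call when any 1 array was left out, but lost it without both Col-0 arrays of number 2 (adjusted p = 0.15), in the arrays of a low 3' to 5' ratio (1.12, adjusted p = 0.11) and in the KNO3 arrays alone (0.93, 0.35). CSA1 lost its call without Col-0 KCl replicate 2 or KNO3 replicate 2 (adjusted p = 0.11 and 0.16), PUCHI without KCl replicate 3 or KNO3 replicate 2 (0.15 and 0.22), WRKY53 without KCl replicate 1 or 3 or KNO3 replicate 2 or 3 (up to 0.17) and EXPA18 without any Col-0 array but KCl replicate 1 (up to 0.16). With the 3' to 5' measure in the model WRKY53 and EXPA18 did not pass (0.16 and 0.17).

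In the intervals that the study associated with lateral root length, 14 genes were tested, of which 3 were higher and 1 lower in Col-0, a share close to the 26.1% called over all probe sets. CYN, which encodes cyanase, an enzyme that breaks down cyanate, was at 759 to 1209.8 in Col-0 and 112 to 1065 elsewhere (1.42 ± 0.33, SE; adjusted p = 0.0028, limma). AT4G02860 was at 779 to 1272 against 135 to 1218 (0.69), with 4.42 elements discarded on average and an adjusted p of 0.14 without both Col-0 arrays of number 2. AT4G02930 was lower (-0.79, adjusted p = 0.016), at 676 to 977 against 560 to 3655, and lost the call without both of number 3 (0.14).

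Many well-known genes are not in the platform annotation, and 84 of them could be named through gene lists of the study itself. Of these, 60 came from a table of genes that the study had called on these same arrays, so their differences are not independent evidence. Over all 22746 probe sets that are not controls, 8.52% were lower and 8.44% higher in Col-0, and of the 84 named genes 5 were lower and 31 higher. These sets are unlike in level. A mean of at least 100 was reached by 67 of the 84, by all 11 nitrate uptake and assimilation genes and by 12612 of the 22746. Among the 6590 tested at that mean, with their own adjustment, 13.2% were lower and 12.9% higher. In the nitrate uptake and assimilation list 8 of 11 were higher and none lower, with a median log2 difference of 1.01 against -0.02 over all probe sets, and 9 of the 11 came from the study's calls. Without both Col-0 arrays of number 1, 2 or 3, 8, 3 and 5 of the 11 were higher. The count was 5 without Col-0 KNO3 replicate 2, 6 without KCl replicate 2 or KNO3 replicate 3, 5 under quantile normalization, 5 in the KCl arrays alone, 2 in the KNO3 arrays alone, 0 with accession means and 9 with array weights. The signals of NIR1 given above led to a difference of 2.07 ± 0.48 (SE; adjusted p = 0.0034, limma), with the other arrays at 217 to 6933 and Col-0 higher than each of the 6, but without both Col-0 arrays of number 2 it was 1.41 and did not pass (adjusted p = 0.13). For NRT2.1 the difference was 2.501 ± 0.71 (SE; adjusted p = 0.017), and the call was lost without Col-0 KCl replicate 2 (adjusted p = 0.14) or KNO3 replicate 2 (0.10), and was 0.38 in adjusted p without both.

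NRT1.1, the transporter and sensor of nitrate, was steadier across the arrays. Its Col-0 signals were 4453, 8228 and 5868 in KCl and 4376, 9642 and 8137 in KNO3, and the others ran from 946 through 2684 to 5449. The difference was 1.28 ± 0.21 (SE; adjusted p = 6.6e-05, limma), and 4.08 elements had been discarded on average. AMT1-2, an ammonium transporter, was higher by 1.92, NRT1.5, which loads nitrate into the xylem, by 1.03, the root ferredoxin FD3 by 0.93, the nitrate reductase NIA2 by 0.91 and the glutamine synthetase GLN1-2 by 0.67, all log2 differences. Set against each accession separately, Col-0 passed against 5 of the 6 for NRT1.1 and 4 for AMT1-2, FD3 and GLN1-2. It passed against 3 for NRT2.1, 2 for NRT1.5 and 1 for NIA2. NIA2 and NRT1.5 lost the call without any of 3 single Col-0 arrays (KCl replicate 2 or KNO3 replicate 2 or 3 for NIA2, up to an adjusted p of 0.27, and KCl replicate 3 or KNO3 replicate 2 or 3 for NRT1.5, up to 0.15), and under quantile normalization they and GLN1-2 did not pass (0.12, 0.15 and 0.92). FD3 did not pass without both Col-0 arrays of number 2 or 3 (0.18 and 0.11), and NIA2 did not with the 3' to 5' measure in the model (0.11). RFNR2, G6PD2 and GLU1 did not pass, with differences of 1.01, 0.16 and 0.50. Of the 5 nitrate signalling genes, ANR1, a MADS-box regulator of lateral roots (1.796), CIPK23, a kinase that acts on NRT1.1 (0.96), and the regulator NLP4 (0.68) were higher, while LBD37 and CBL1 had 0.37 and -0.72 and did not pass. CIPK23 fell to 0.55 with the 3' to 5' measure in the model and did not pass (adjusted p = 0.11), nor did it without both Col-0 arrays of number 2 or 3 (0.20 and 0.12). NLP4 lost the call without Col-0 KCl replicate 3 or KNO3 replicate 1 (adjusted p = 0.10 and 0.11).

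The defence genes went both ways. CYP71A12, a cytochrome P450 of indole metabolism that leads to camalexin and related compounds, was nearly silent in Col-0, at 16.4, 3.3 and 2.4 in KCl and 84.5, 59.3 and 12.2 in KNO3. The other arrays ran from 6.2 through 319 to 3659.7, and 32 of 36 lay above the highest Col-0 array. The log2 difference was -4.48 ± 0.71 (SE; adjusted p = 4.2e-05, limma), and Col-0 was lower than each of the 6. All 6 Col-0 signals were under 100, and the difference ran from -5.65 to -3.32 over the alternatives. Its close relative CYP71A13 had 1.8 to 39.5 in Col-0 and 3.5 to 1996 elsewhere (-2.47, adjusted p = 0.044), with the call lost without Col-0 KCl replicate 1 or KNO3 replicate 3 (0.16 and 0.18). The mean signal of CYP71A13 was 16.1 in Col-0, 19.4 in Ts-5, 33.9 in NFA-8, 93.4 in Tamm-27 and 106 in Sq-8. It was 549 in Kas-2 and 654 in Var2-1, and Col-0 passed against 2 of the 6 accessions. CYP71A12 and CYP71A13 are similar in sequence, so the probe sets may share signal. NPR1, the salicylate receptor, was lower (-0.63). FMO_GS-OX1, which oxidises the side chain of aliphatic glucosinolates, was lower too (-1.95), and both lost the call without Col-0 KCl replicate 2 and KNO3 replicate 1 together (adjusted p = 0.14 and 0.11). For FMO_GS-OX1 all 6 Col-0 arrays and 25 of the 36 others had signals under 100. Its mean was 18.8 in Col-0 and 23.5 in Sq-8.

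Higher in Col-0 was ICS1, the main enzyme of salicylate synthesis, at 442, 188 and 822 in KCl and 949, 776 and 616 in KNO3 against a median of 149 and a range of 57.7 to 1204 elsewhere. Its difference was 1.798 ± 0.35 (SE; adjusted p = 0.00051, limma), and it exceeded each of the 6. OPR3, an enzyme of jasmonate synthesis, was also higher (1.57), although Ts-5 had a mean of 796, above every Col-0 array. LAX3, an auxin influx carrier of lateral root emergence, was at 973 to 1621 in Col-0 and 138 to 743 elsewhere, without overlap (1.44 ± 0.23, SE; adjusted p = 5.5e-05). NAS4 was lower in Col-0, with a difference of -1.78 ± 0.20 (SE; adjusted p = 1.3e-07, limma). Its Col-0 signals ran from 24.0 to 118, with 4 of the 6 under 100. They overlapped with the other arrays, which ran from 69.7 through 208 to 581, and Var2-1 had the lowest mean of the other accessions at 99.6.

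**Figure D4:**
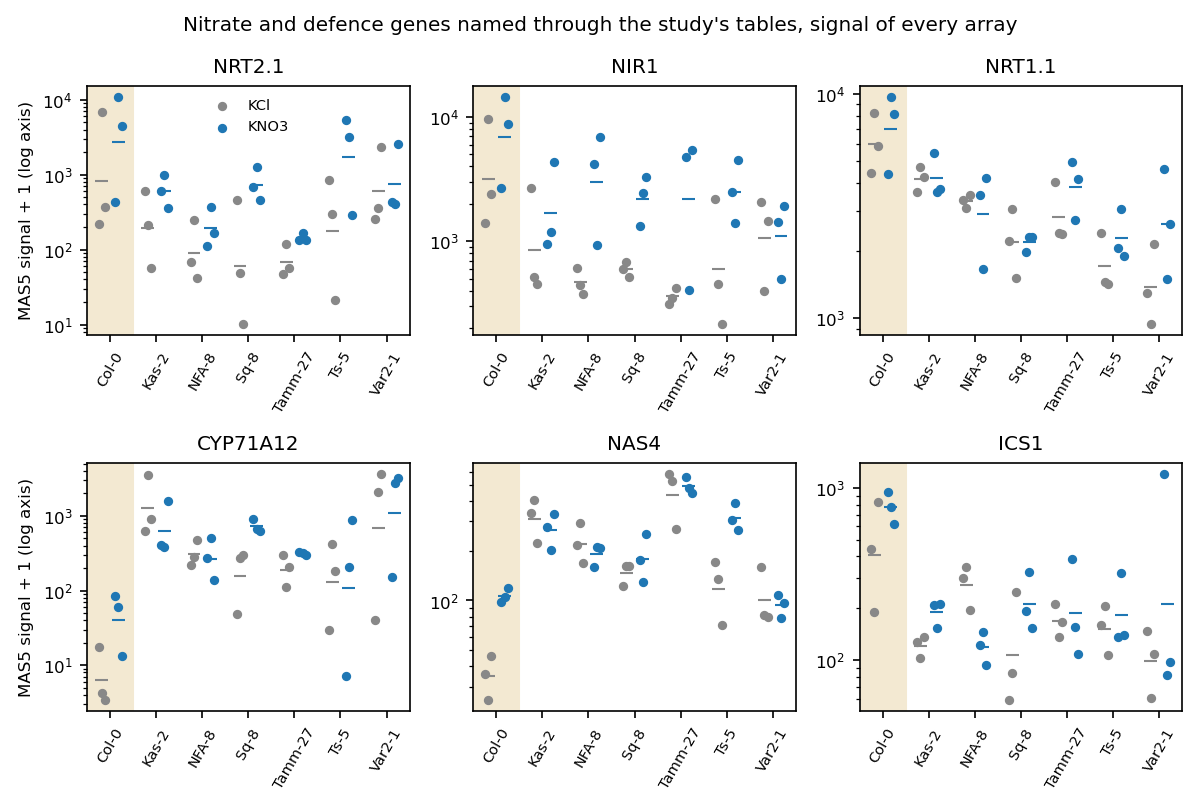
MAS5 signal plus 1 on a log axis for 6 genes named through the study's gene lists, 1 point per array, Col-0 shaded, KCl in grey and KNO3 in blue. In NRT2.1 the grey and blue Col-0 points overlap, with a grey one at 6932 and a blue one at 436, while in NAS4 the Col-0 points of KCl (24.0 to 45.5) and KNO3 (96.6 to 118) are apart.

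The difference between Col-0 and the other accessions was then compared between treatments. No probe set passed the test of a difference that depends on treatment (limma, 79 or 1.2% at an unadjusted p under 0.05). The 4 with the smallest p were AT3G47380, AT1G56660, AT1G03730 and AT4G35500 (adjusted p = 1.00 for each), and all 4 were lower in Col-0. AT3G47380 was at 5.0, 10.9 and 39.2 in Col-0 KCl and 81.0, 114 and 86.8 in Col-0 KNO3, and AT1G56660 at 35.4, 54.6 and 37.1 in KCl and 22.4, 5.9 and 2.9 in KNO3. In each the Col-0 arrays of KCl and KNO3 did not overlap. These genes were picked for the smallest p of this contrast, so the separation is not separate evidence. For AT3G47380 5 of the Col-0 arrays were under 100, and for AT1G56660 all 6 were.

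Fitted on their own, the arrays labelled KCl gave 295 lower (4.48%) and 278 higher (4.22%), and those labelled KNO3 gave 202 (3.07%) and 190 (2.88%). Of the lower calls 97 were shared (32.9% of the KCl calls and 48.0% of the KNO3 calls), and of the higher calls 131 (47.1% and 68.9%). Of the 295 lower in KCl, 288 had the same sign in KNO3, and of the 278 higher 274 did, against 5195 of all 6590 probe sets. These fits use different arrays, but both treatments carry the same probe mismatches, and Col-0 arrays of the same number deviated together across the salts.

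**Figure D5:**
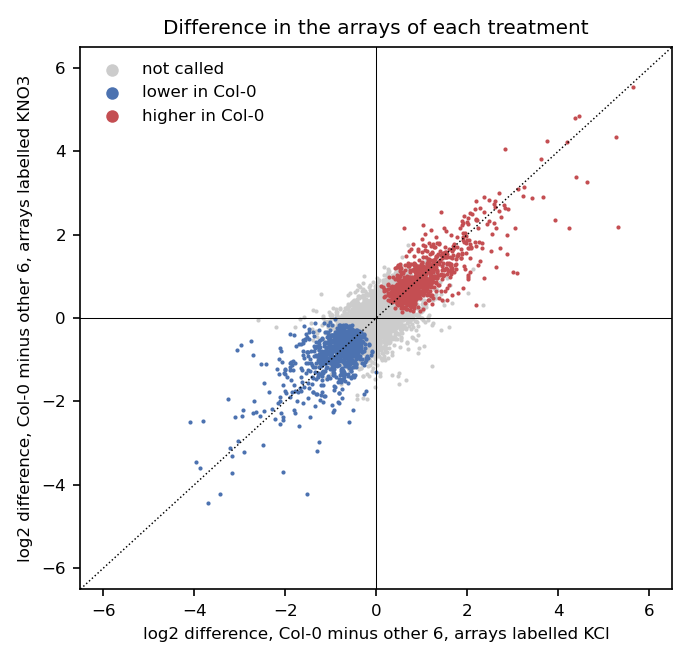
Log2 difference between Col-0 and the other 6 accessions in the arrays labelled KCl (x) and KNO3 (y), 1 point per tested probe set, with the calls over both treatments in blue (872 lower) and red (847 higher). The called points lie along the dotted line of equal differences, and all of them have the same sign in both. The calls were made on the mean of the KCl and KNO3 differences drawn here. Probe sets with opposite signs would rarely be called, so this shared sign is not separate evidence of agreement between treatments.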

How the data were processed

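Per the submitters' processing notes the deposited values are MAS5 signals, linear intensities per probe set. The study's methods state that the authors discarded probe elements whose rank in a probe set departed from Col-0; the deposited lists (other, element numbers) hold these. The study's methods mapped probes with the TAIR10 annotation; names here came from GEO's platform annotation through the reference tables (TAIR10.1). A supplementary table pairs the same signals with other probe set names; those of the deposited matrix were kept, under which NIR1 and NRT2.1 rose in KNO3 in all 7 accessions on average (log2 1.63 and 1.82, ranks 3 and 2 of 22746) and 10 shoot markers correlated across arrays (median 0.85). Against them, ribosomal protein and ubiquitin genes were higher under the other pairing, and the first 2 tested probe sets of the same gene had a median correlation of -0.02 across arrays (28 genes, -0.72 to 0.83). This doubt touches every gene name.

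Signals plus 1 were taken to log2. Tested were 6590 of the 13367 probe sets with 1 nuclear gene, at a mean of at least 100. limma 3.58.1 (R 4.3.3) fitted 14 group means with a variance trend, and each accession and treatment had equal weight; the 2 Col-0 groups were set against the mean of the others, two-sided, at a Benjamini-Hochberg rate of 0.1. The 84 genes named through the study's lists were tested among 22746 probe sets. Depth has no meaning for arrays, whose number limits the precision. Replicates are called biological by the labels. Arrays of the same accession and number deviated together (every correlation over 0.1) in 3 of 7 accessions, Col-0, Tamm-27 and Var2-1; a random block (consensus correlation 0.14) was added after seeing the data.

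The members and lists were chosen with earlier results of these data known. Named by rule were the 12 lowest (10 existed) and 10 highest differences without overlap, up to 3 tested genes of each of 18 lists with the smallest p and the 4 smallest treatment p. Named after their values were seen were the genes past all 6 comparisons that have a symbol and, outside the tested set, the nitrate lists, the genes called lower, ICS1, LAX3 and OPR3. Of 553 list entries 29 were dropped because the symbol is not that locus's name. The 3' to 5' ratio uses 1 of 8 combinations of control probe sets, all tried after seeing the data; the one kept gave the range and array count of an earlier account of these data. On simulated data for the comparison of 6590 probe sets, 36 of 50 genes lowered and 33 of 50 raised by 1 on the log2 scale were called, and 47 and 49 of 50 at 2. Of 6390 unchanged genes 17 were called. Apart from these changes all accessions had the same level, with independent noise. The simulation thus held no spread among accessions, no shared deviation by number and no 3' to 5' differences, and its recovery may not carry over to the real arrays. No column of per-sample values went unused.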

Additional observations from a re-analysis of the deposited data

Results flagged for a closer look

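In 5 of the 100 genes chosen for naming or for the nitrate and defence comparison, 1 Col-0 array stood apart from the other 5 by more than Dixon's 95% limit, a share that chance gives in about 1 group in 20. In AT2G07180 it was KCl replicate 2 at 38.6, against 94.9 to 135 (a gap of 0.718 of the range on the log2 scale). In AT2G19970 it was KNO3 replicate 2 at 1561, against 2329 to 2880.3 (0.653), and in EXPB2 the same array at 105, against 356 to 578 (0.714). In LD, a regulator of flowering time, it was KCl replicate 1 at 288, against 179 to 210.1 (0.663). In PRN it was KNO3 replicate 1 at 746, against 1323 to 1714 (0.688).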

How the results depend on the processing

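Of the 72 named genes that passed, 47 kept the call under every alternative but the accession means, where none of the 100 passed (adjusted p from 0.13 to 0.99), and 25 lost it under at least 1. The accession means gave 0 higher and 0 lower. In the order higher, lower, higher than each and lower than each, the counts were 1738, 1630, 122 and 122 with all probe sets, 63, 148, 2 and 3 with at most 2 discarded elements (fewer genes tested), 1666, 1735, 116 and 157 with array weights, 278, 295, 7 and 8 in the KCl arrays alone and 190, 202, 6 and 5 in the KNO3 arrays alone (fewer arrays). Chosen after seeing the data, they were 520, 587, 39 and 42 without both Col-0 arrays of number 1, 410, 442, 25 and 35 without those of number 2, 367, 405, 18 and 35 without those of number 3, and 466, 462, 29 and 43 without KCl replicate 2 and KNO3 replicate 1. At a threshold of 0.05 the last pair was 27 and 31, and without Sq-8 it was 90 and 116. Treatment dependence gave 1 with a highest group mean of at least 100 and 2 with array weights. For the array weights and the loss of Sq-8 the cause was not tested. The setting called all probe sets was not the 22746 probe sets that are not controls, which gave 1919 higher and 1939 lower. Leaving out single arrays gave 587 to 946 higher, 609 to 978 lower, 27 to 58 higher than each, 43 to 75 lower than each and 0 to 0 for treatment; the count higher than each fell to 34, 27 and 28 without Col-0 KCl replicate 2, KCl replicate 3 and KNO3 replicate 3. Replicate numbers did not pair arrays across accessions (median correlation of deviations 0.02 for the same number and -0.02 for others), and with the replicate block 928 were higher and 933 lower. Within an accession every same-number correlation was over 0.1 in 3 of 7, in Col-0 each array correlated best with its own number, and with accession and number as a random replicate block, added later, the counts were 698, 707, 34 and 43, and EXPA18 lost its call. Quantile normalization gave 822 and 841, and only arrays of a low 3' to 5' ratio 919 and 829. With the ratio in the model the control sets used gave 613 and 609, and the 7 other combinations, added after seeing the data, 566 to 694 and 585 to 694. Without the 6 arrays that correlate least with the rest, also added later, 931 were higher and 957 lower. SPX2, which did not pass, reversed to -0.35 in the low ratio arrays (adjusted p = 0.083).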
